A study of Mus musculus with 36 samples.

Results

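The renin-angiotensin system genes described here were 9 genes chosen by symbol, *Ren1*, *Agt*, *Ace*, *Agtr1a*, *Agtr1b*, *Mme*, *Enpep*, *Nr3c2* and *Hsd11b2*, of 78239 gene identifiers counted in the series. All 9 symbols matched a single Ensembl identifier. The series holds bulk RNA sequencing of heart, kidney and liver from male wild-type C57BL/6NCrl mice, an inbred substrain bought from a breeder and fed standard chow. Tissue was taken at ages of 8, 10 and 12 weeks. Each of the 9 tissue-by-age groups had 4 libraries, 36 in all, and no group received a treatment. All were wild type, came at the same age from the same supplier and were killed under ketamine and xylazine, and the labels do not say whether tissues with the same number came from the same mouse. RNA came from homogenised whole tissue, so each library mixes all cell types of an organ, and p-values measure the spread between these libraries. The question put to the data was which of these genes differ between the organs and which differ between ages as mice pass from adolescence to adulthood.

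Renin cuts angiotensinogen to angiotensin I, angiotensin-converting enzyme turns this into angiotensin II, and angiotensin II acts through the type 1 receptors to raise blood pressure and to release aldosterone from the adrenal gland. Renin is secreted by juxtaglomerular cells at the entrance of the glomerulus, whereas angiotensinogen is a plasma protein made mainly by hepatocytes. Aldosterone acts on the mineralocorticoid receptor of the distal nephron, where an inactivating enzyme keeps glucocorticoids away from that receptor.

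Levels are given as CPM, the read pairs on a gene per 1000000 counted pairs of the library after scaling by TMM factors over the 36 libraries. The libraries held 21031599 to 33637390 counted pairs. The labels of the tissues were matched by their defining genes. The 7 cardiomyocyte markers summed to between 49400 and 65200 CPM in heart and to at most 3.89 CPM in the other tissues. The 6 hepatocyte markers summed to between 96800 and 161000 CPM in liver and 260 to 338 CPM in kidney. The 10 proximal tubule markers summed to between 11100 and 13400 CPM in kidney, 941 to 1970 CPM in liver and 55.8 to 84.2 CPM in heart. Markers of other tissues varied between libraries, as the hepatocyte sum reached 23.7 CPM in heart at 10 weeks (0.445 in the median heart library) and 6 adipocyte markers ranged from 0.165 to 38.9 CPM in kidney. In such bulk samples, fewer cells of a type and less RNA per cell cannot be told apart.

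On the mouse genome build GRCm39, *Ren1* (ENSMUSG00000070645) lies at chr1:133278248-133288063 on the plus strand and *Agt* (ENSMUSG00000031980) at chr8:125279301-125296716 on the minus strand. *Ace* (ENSMUSG00000020681) lies at chr11:105858469-105880790 on the plus strand, and 952 of its exon bases are also covered by the antisense gene *Gm11651*. The type 1 receptor genes are on separate chromosomes, *Agtr1a* (ENSMUSG00000049115) at chr13:30518942-30566850 and *Agtr1b* (ENSMUSG00000054988) at chr3:20368609-20421348. *Mme* (ENSMUSG00000027820) lies at chr3:63148889-63293451, *Enpep* (ENSMUSG00000028024) at chr3:129062824-129126369, *Nr3c2* (ENSMUSG00000031618) at chr8:77625576-77971863 and *Hsd11b2* (ENSMUSG00000031891) at chr8:106245369-106250620. All 9 are annotated as protein-coding.

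The bases just upstream of the RefSeq transcription start are shown for 6 of the genes, those with a TATA box in the promoter and *Nr3c2*, which has none. RefSeq's promoter table held 7 of the 9 genes (not *Agtr1a* or *Hsd11b2*), and the 6 windows below, for *Ace* that of the first of its entries, run 5′ to 3′ from base 40 to base 11 before the start. Capitals mark the TATA box (TATAAA, or TTTATA where it reads on the other strand) and the GC box (GGGCGG).
Ren1, chr1:133278372-133278401, plus strand: tacatggtgtgTATAAAagaaggctcaggg
Agt, chr8:125296456-125296485, minus strand: accccttgagTATAAAtaagcctgcttggc
Ace, chr11:105858734-105858763, plus strand: tggctgggtTTTATAatccgcaGGGCGGtc
Agtr1b, chr3:20421352-20421381, minus strand: cctttgctgTATAAAttgtagctgtctccg
Enpep, chr3:129126409-129126438, minus strand: tcgctccagttcagaaggggcaggcctggg
Nr3c2, chr8:77628918-77628947, plus strand: ccctcagctcctgcgcacccggggtgtcat

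TATAAA was found on either strand in *Ren1* at bases 29 to 24 before the start, in *Agt* at bases 30 to 25, and in *Ace* and *Agtr1b* at bases 31 to 26. It also stood in *Enpep* at bases 52 to 47, outside the window shown. All 3 entries of *Mme*, a gene with its highest level in kidney, and the other entry of *Ace* held none in their 250 bases. Across all 32841 promoters of the table, 12.4% held TATAAA on either strand within 250 bases before the start, and 2.27% held it with its first base 20 to 35 bases before the start. *Nr3c2* held no TATAAA in its 250 bases but CCAAT on either strand at 3 places and GGGCGG at 3 places, motifs found in 33.9% and 32.7% of promoters. In the GENCODE annotation, which starts these transcripts further upstream than RefSeq, the windows of *Ren1*, *Agt*, *Ace* and *Nr3c2* lie inside the 5′ untranslated region.

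**Figure D1:**
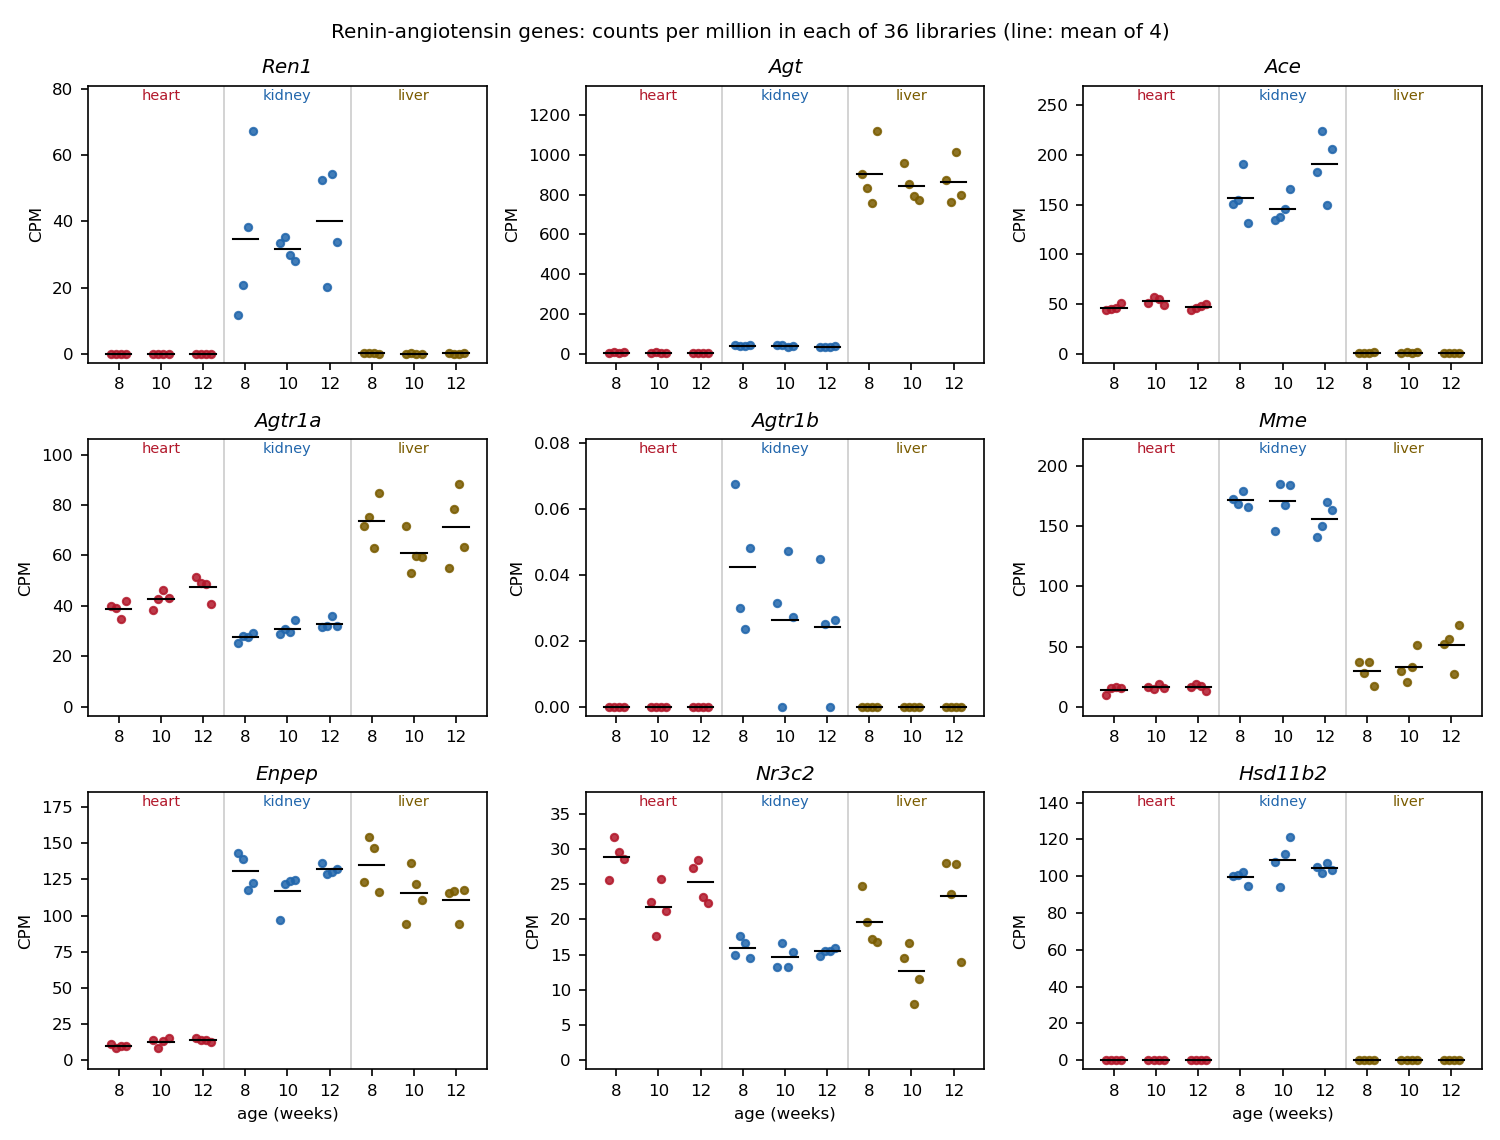
Level of each gene in each of the 36 libraries, as CPM on a linear axis of its own in each panel, against age in weeks for heart (red), kidney (blue) and liver (brown). Points are libraries and black lines are means of 4. *Ren1* and *Hsd11b2* stand above 10 CPM in kidney alone, *Agt* is highest in liver, and *Agtr1b* stays under 0.07 CPM everywhere.

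Each of the organs had its own set of these genes. Kidney held the highest mean levels of *Ren1*, *Ace*, *Mme* and *Hsd11b2*, liver of *Agt* and *Agtr1a*, and heart of *Nr3c2*, while *Enpep* did not differ past the test between kidney and liver with TMM factors but was higher in kidney with library totals alone. In edgeR's test of 19716 genes, a call needed an adjusted p under 0.05 together with more than a doubling (log2 over 1). By this rule 6 of the 8 genes tested were higher in kidney than in heart and 0 were lower. All genes tested gave 30.8% higher in kidney and 21.9% higher in heart. Between liver and heart 3 were higher in liver (*Agt*, *Enpep* and *Mme*) and 2 in heart (*Ace* and *Hsd11b2*), against 26.5% and 28.7% of all genes. *Ren1* and *Hsd11b2* entered this comparison because they passed the count filter in kidney. The *Hsd11b2* call rests on 41 pairs in heart and 8 in liver. Between kidney and liver 4 were higher in kidney and 2 in liver, against 30.6% and 17.2%. *Agtr1b* did not pass the filter on counts.

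*Ren1*, which encodes renin, the protease that starts the cascade, was counted in kidney and close to nowhere else. Its level over the 12 kidney libraries ran from 11.8 CPM through a median of 33.7 to 67.4 CPM. No pair was counted in any of the 12 heart libraries, where a floor of 3 counts per library equals 0.103 to 0.149 CPM, and liver held 20 pairs in total with 6 libraries at 0. The kidney and liver libraries did not overlap, and neither did kidney and heart. The kidney mean of 35.5 CPM was at least 282-fold higher than that floor in heart. It was at least 243-fold higher than the same floor in liver, under which the liver mean lay (edgeR adjusted p = 6.88e-17).

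*Agt*, encoding angiotensinogen, the substrate of renin, was at 869.9 ± 112 CPM in liver (SD, n = 12), with a lowest library of 758.7, a median of 842.2 and a highest of 1121 CPM. Kidney ranged from 32.7 to 46.3 CPM and heart from 2.82 to 7.31 CPM. None of the tissues overlapped. The liver mean was 22.5-fold the kidney mean, and edgeR gave a log2 fold change of -4.49 ± 0.10 (SE) for kidney against liver (adjusted p = 2.12e-29). Kidney stood 7.46-fold above heart (log2 2.91 ± 0.10, adjusted p = 6.93e-24). Exons of *Agt* share bases with *Capn9* and *Cog2* on the other strand, yet counting by strand gave the same number of pairs in these libraries.

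*Ace* encodes the converting enzyme, which sits on endothelial cells and on the brush border of the proximal tubule. Its level was 131.2 to 224.3 CPM in kidney with a median of 152.4, 43.8 to 56.6 CPM in heart with a median of 48.7, and 0.518 to 2.02 CPM in liver with a median of 0.921. The 3 tissues did not overlap, with kidney first, heart second and liver last. The mean in kidney was 3.37-fold that in heart (log2 1.75 ± 0.08, adjusted p = 4.75e-20) and 153-fold that in liver (log2 7.26 ± 0.12, adjusted p = 1.73e-33). Pairs that overlapped *Gm11651* as well were left out of these counts, and they made up 39.3% of the pairs in kidney, 35.3% in heart and 32.2% in liver when the strand columns were summed.

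The enzymes that cut angiotensin peptides further also had higher levels in kidney than in heart. *Enpep*, encoding aminopeptidase A, which trims angiotensin II to angiotensin III, was at 126.5 ± 12.0 CPM in kidney (SD, n = 12), 120.7 ± 18.2 CPM in liver and 12.1 ± 2.47 CPM in heart. The kidney and liver libraries overlapped across most of their range, from 97.0 to 143.1 CPM in kidney and from 94.0 to 154.3 CPM in liver. Their difference of 0.07 ± 0.07 on the log2 scale did not pass the test (adjusted p = 0.36), with a 95% interval of -0.07 to 0.21. Scaled by library totals alone it was 0.86 (adjusted p = 1.52e-12), with means of 171.6 CPM in kidney and 94.6 CPM in liver. Kidney against heart gave 3.40 ± 0.08 (adjusted p = 6.86e-29).

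*Mme*, encoding neprilysin, a membrane peptidase that cleaves angiotensin and natriuretic peptides, was at 140.5 to 184.9 CPM in kidney with a median of 167.8. Liver libraries ran from 17.6 to 68.2 CPM with a median of 34.96, and heart libraries from 10.1 to 18.8 CPM with a median of 16.1. Kidney stood clear of both other tissues, and the lowest liver library overlapped with the highest heart libraries. The log2 fold change was 3.39 ± 0.14 for kidney against heart (adjusted p = 5.12e-22) and 1.24 ± 0.13 for liver against heart (adjusted p = 1.33e-10).

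The receptor gene *Agtr1a*, the main type 1 receptor of mice, was spread more evenly over the organs. It was at 68.7 ± 11.5 CPM in liver (SD, n = 12), 43.0 ± 4.97 CPM in heart and 30.5 ± 3.01 CPM in kidney. Liver libraries (52.9 to 88.4 CPM) did not overlap with heart libraries (34.7 to 51.3 CPM), but the highest kidney library, at 36.2 CPM, stood above the lowest heart library. Liver was higher than kidney by 2.25-fold (log2 -1.17 ± 0.06 for kidney against liver, adjusted p = 6.21e-18). Scaled by library totals alone, the means were 53.58 CPM in liver, 40.52 CPM in heart and 41.35 CPM in kidney. Liver was then less than a doubling above kidney, and the liver libraries overlapped with those of both other tissues. For kidney against heart the log2 fold change was -0.50 ± 0.06 (adjusted p = 1.34e-08) with TMM factors but 0.03 (adjusted p = 0.652) when scaled by library totals alone. That other scaling moved the median of all 19716 genes from 0.15 to 0.67 on the log2 scale for kidney against heart and from 0.16 to 0.93 for kidney against liver.

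*Agtr1b*, the second type 1 receptor gene of rodents, was barely detected. Heart and liver held 0 counts in all 24 libraries, and kidney held 14 pairs over 12 libraries, a mean of 0.0309 CPM that is below the floor of 3 counts per library. No fold between tissues is given for it. The canonical transcripts of *Agtr1a* and *Agtr1b* shared no stretch of 150 bases, the length of a read, and 1.48% of the 50-base stretches of *Agtr1a* were found in *Agtr1b*.

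The mineralocorticoid arm divided between a receptor that every organ expressed and an enzyme with few counts outside kidney. *Nr3c2*, the mineralocorticoid receptor, was at 25.3 ± 4.05 CPM in heart (SD, n = 12), 18.5 ± 6.40 CPM in liver and 15.3 ± 1.33 CPM in kidney. The lowest kidney library, at 13.2 CPM, lay above 2 of the liver libraries, and liver ranged most widely, from 8.05 to 28.1 CPM. Kidney against heart gave -0.71 ± 0.10 on the log2 scale (adjusted p = 4.26e-08) with TMM factors and -0.19 (adjusted p = 0.0747), which did not pass, with library totals alone. Kidney against liver gave -0.23 ± 0.10 (adjusted p = 0.0318), but the sign turned with library totals alone, at 0.56 (adjusted p = 4.19e-06), and it missed the threshold in 6 of the 12 fits with 1 library of each tissue left out (adjusted p from 0.0507 to 0.112).

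*Hsd11b2* encodes the enzyme that inactivates corticosterone in aldosterone target cells. Kidney libraries ran from 93.9 CPM through a median of 103.0 to 121.3 CPM. Heart held 41 pairs in 12 libraries and liver 8 pairs with 7 libraries at 0. The highest library of the other tissues, a heart library at 0.295 CPM, lay far below the lowest of kidney. The kidney mean was 719-fold the heart mean (log2 9.52, adjusted p = 6.00e-33). It was at least 713-fold higher than the liver floor of 3 counts per library (adjusted p = 8.14e-33), under which the liver mean lay. The heart mean of 0.145 CPM rests on 41 pairs, so the 719-fold difference is imprecise.

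Levels of different genes are comparable only per length, and per kilobase of the canonical transcript *Hsd11b2* led in kidney at 56.1 CPM per kb. *Ace* at 31.6, *Enpep* at 30.3, *Ren1* at 22.3 and *Mme* at 20.01 CPM per kb followed, and *Nr3c2* was lowest of those tested there at 2.54 CPM per kb. In liver *Agt* stood at 146.8 CPM per kb, ahead of *Agtr1a* at 30.0 and *Enpep* at 28.9. With the length of all exons together, a choice made after seeing the data, *Enpep* at 15.5 and *Agtr1a* at 14.9 CPM per kb changed places in liver, and in kidney *Ren1* at 21.4 came before *Enpep* at 16.3 CPM per kb. In heart *Agtr1a* was first at 18.8 CPM per kb, before *Ace* at 9.36 and *Nr3c2* at 4.19. With all exons together these were 9.33, 8.72 and 2.96 CPM per kb. The *Ace* values leave out the pairs shared with *Gm11651*, 39.3% in kidney and 35.3% in heart. They are thus too low in both tissues, and the order of *Agtr1a* and *Ace* in heart is not settled. *Agt* was lowest of the 6 genes tested in heart, at 0.876 CPM per kb.

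**Figure D2:**
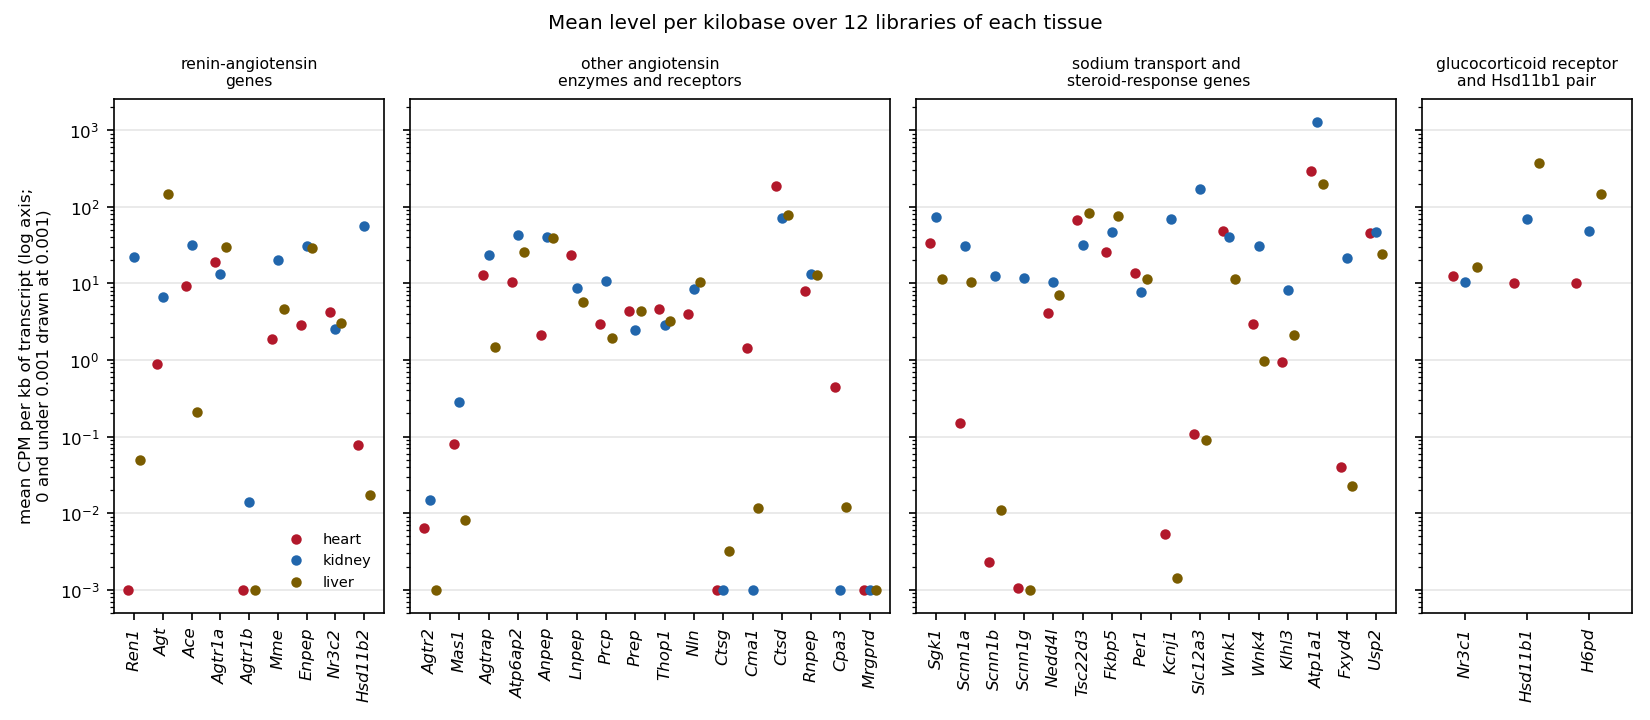
Mean CPM per kilobase of transcript over the 12 libraries of each tissue, on a log axis, for the 9 genes, 16 other genes of angiotensin peptides, 16 genes of sodium transport and steroid response, and 3 glucocorticoid genes. *Hsd11b2* and the sodium transport genes *Scnn1b*, *Scnn1g*, *Kcnj1* and *Slc12a3* stand far higher in kidney than in heart and liver.

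Other enzymes and receptors for angiotensin peptides were read from a list of 17 genes, of which 14 were tested between tissues. In kidney against heart 6 were higher in kidney and 4 in heart, against 30.8% and 21.9% of all genes. The middle log2 value was 0.81 in the list and 0.15 in all genes. *Mas1*, a receptor for a shorter angiotensin peptide, was at 2.59 CPM in kidney, 0.729 CPM in heart and 0.0728 CPM in liver.

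Aminopeptidase N, the product of *Anpep*, cuts angiotensin III further. With TMM factors *Anpep* resembled *Enpep* in its distribution, with 147.6 CPM in kidney, 143.2 CPM in liver and 7.82 CPM in heart. As for *Enpep*, the near equality of kidney and liver depends on these factors. Library totals alone moved the median of all genes for kidney against liver from 0.16 to 0.93 on the log2 scale. The type 2 receptor gene *Agtr2* stayed at or under 0.151 CPM in every library. Heart held the mast cell proteases *Cma1*, a chymase, at 1.58 ± 0.658 CPM and *Cpa3* at 0.658 ± 0.267 CPM, with 0 counts of both in all 12 kidney libraries and at most 0.0969 CPM in liver. Liver against heart gave 3 of the 14 higher in liver and 7 higher in heart (median -0.92), against 26.5% and 28.7% of all genes. Kidney against liver gave 4 higher in kidney and 0 higher in liver (median 0.03), against 30.6% and 17.2%.

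Downstream of aldosterone, 16 genes of sodium transport and steroid response were tested. Of these, 10 were higher in kidney than in heart and 1 lower, with a median of 2.62, beside 30.8% and 21.9% of all genes. Against liver 11 were higher in kidney and 1 lower, with a median of 2.25, beside 30.6% and 17.2%. *Scnn1b* and *Scnn1g*, subunits of the epithelial sodium channel, were at 34.4 ± 1.97 and 37.6 ± 2.56 CPM in kidney and at most 0.33 CPM in any other library. *Tsc22d3*, a steroid-induced gene, was the lower one in both comparisons (log2 -1.12 ± 0.14 and -1.39 ± 0.14). *Hsd11b1*, encoding the enzyme that works against *Hsd11b2* by regenerating corticosterone, was highest in liver, with 608.4 ± 56.1 CPM in liver, 112.4 ± 31.8 CPM in kidney and 16.7 ± 1.47 CPM in heart.

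Adrenal genes were looked for because the gland lies against the kidney. *Cyp11b2*, the aldosterone synthase, had 0 counts in all kidney and heart libraries, and *Cyp11b1* reached at most 0.0434 CPM in any library. *Star*, a cholesterol carrier of steroid synthesis, was at 3.80 ± 0.364 CPM in kidney and at a like level in heart (3.32 ± 1.03 CPM) and liver (2.89 ± 0.494 CPM). The defining adrenal markers were thus at or near 0 in the kidney libraries.

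**Figure D3:**
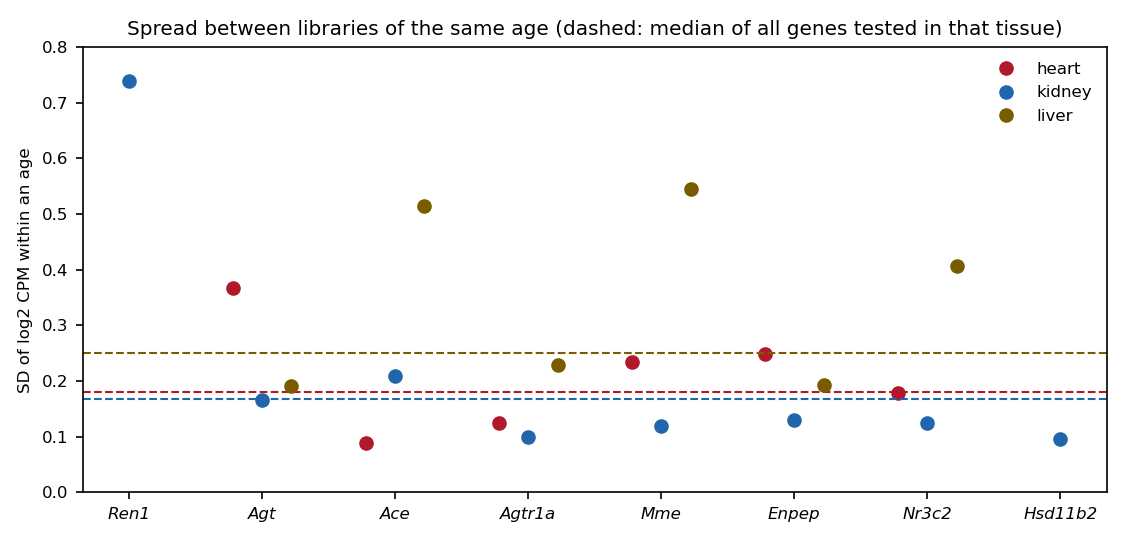
Standard deviation of log2 CPM between libraries of the same age for each gene in heart (red), kidney (blue) and liver (brown), with dashed lines at the median of all genes tested in that tissue. *Ren1* in kidney stands highest, at 0.739 against a median of 0.167, and the other 7 genes tested in kidney lie between 0.0955 and 0.209.

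Among the members, *Ren1* varied most between libraries of the same age. At 8 weeks the 4 kidney libraries had 11.8, 20.9, 38.2 and 67.4 CPM, at 10 weeks 33.6, 35.2, 29.8 and 28.1 CPM, and at 12 weeks 52.4, 20.3, 54.4 and 33.8 CPM. The 8-week libraries thus held both the lowest and the highest value of all, and every value of 10 weeks lay inside the range of 8 weeks. The highest library was 5.71-fold the lowest at 8 weeks, 1.25-fold at 10 weeks and 2.68-fold at 12 weeks. The standard deviation of log2 CPM within an age was 0.739, larger than that of 98.6% of the 17649 genes tested in kidney.

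Markers of the vessel wall and of juxtaglomerular cells were read beside it, and their part in the spread of *Ren1* was not tested. The 10 markers summed to between 85.9 and 197 CPM over the kidney libraries, of which 8 reached 1 CPM, and *Akr1b7*, a marker of juxtaglomerular cells, reached at most 0.402 CPM. The 8-week library with the lowest *Ren1* also had the lowest *Acta2* (16.3 CPM, a smooth muscle actin) and the lowest *Myh11* (15.6 CPM). Its *Gja5*, *Gja4*, *Crip1* and *Akr1b7* were not the lowest. Another 8-week library low in *Ren1*, at 20.9 CPM, had the highest *Acta2*, at 52.6 CPM, with *Myh11* at 51.8 CPM. In the library with the highest *Ren1*, *Acta2* and *Myh11* were at 40.3 and 44.2 CPM, inside the range of the other libraries. *Gja5*, a connexin of renin cells and arterial endothelium, was at 4.64 CPM there, the highest of the 12. *Cspg4*, a pericyte marker, fell between 8 and 10 weeks (log2 -0.43 ± 0.07, adjusted p = 0.0163), and none of the other 7 markers tested passed in any age comparison of kidney. Between 8 and 10 weeks 0.929% of all kidney genes passed.

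Between ages, no gene of the 9 passed the test in any tissue. With an adjusted p under 0.05 as the threshold, 0 of 6 genes tested in heart were called for 12 against 8 weeks, where 4.56% of all 15137 genes were, and 0 for 10 against 8 weeks (1.06% of all) and 12 against 10 weeks (0.0396%). In kidney 0 of 8 were called in the same comparisons, with 0.0567%, 0.929% and 0.482% of 17649 genes. In liver 0 of 6 were called, with 0.239%, 0.0204% and 0.0545% of 14672 genes. *Agtr1b* was tested in no tissue, and *Ren1* and *Hsd11b2* in kidney only. At an unadjusted p under 0.05, the heart had 3, 3 and 1 genes of 6 for 12 against 8, 10 against 8 and 12 against 10 weeks, where 23.4%, 15.8% and 11.7% of all genes passed. In the same order the kidney had 3, 2 and 2 of 8, beside 11.7%, 16.5% and 16.4% of all genes, and the liver 2, 1 and 1 of 6, beside 15.1%, 14.3% and 14.1%.

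**Figure D4:**
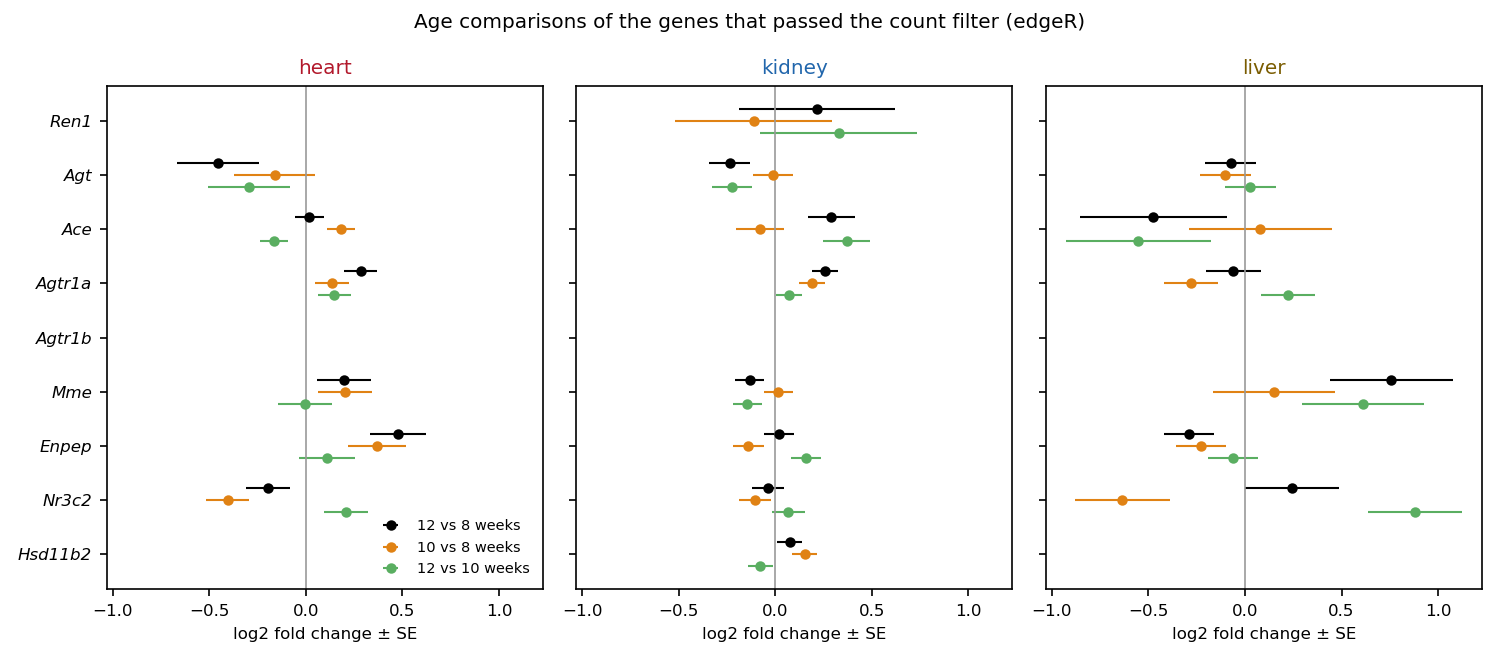
Log2 fold change between ages with its standard error (bars) from edgeR for every gene tested in heart, kidney and liver, for 12 against 8 weeks (black), 10 against 8 weeks (orange) and 12 against 10 weeks (green). No point passed an adjusted p of 0.05. The widest bars are those of *Ren1* in kidney and of *Ace* and *Mme* in liver.

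With 4 libraries a group these comparisons had uneven reach. In simulated counts with a planted log2 change of 1, the heart fit recovered 89.5% of the genes so altered, the kidney fit 85.5% and the liver fit 75.5%. Of the genes called in these fits 8.21%, 3.93% and 1.31% were unchanged ones. The planted change was larger than any age difference of the members, at most 0.88, so the rates do not give the reach for smaller changes. For *Ren1* the 12 against 8 week difference was 0.22 ± 0.40 on the log2 scale (adjusted p = 0.875), with a 95% interval of -0.58 to 1.01. *Hsd11b2*, with the smallest spread of the members in kidney, gave 0.07 ± 0.06 (adjusted p = 0.696) and an interval of -0.05 to 0.20. *Agt* in liver gave -0.07 ± 0.13 (adjusted p = 0.831) and an interval of -0.33 to 0.18.

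The means of the receptor *Agtr1a* were in the order of age in heart and kidney. In heart its 4 libraries had 39.8, 39.01, 34.7 and 41.9 CPM at 8 weeks, 38.5, 42.8, 46.5 and 43.0 CPM at 10 weeks, and 51.3, 49.2, 48.5 and 40.9 CPM at 12 weeks. In kidney the values were 25.4, 28.1, 27.5 and 29.3 CPM at 8 weeks, 28.9, 30.8, 29.6 and 34.6 CPM at 10 weeks, and 31.6, 31.9, 36.2 and 32.0 CPM at 12 weeks. Kidney libraries of 8 and 12 weeks did not overlap, and in heart 1 library of 12 weeks lay within the range of 8 weeks. The log2 fold change for 12 against 8 weeks was 0.28 ± 0.09 in heart (adjusted p = 0.0674) and 0.26 ± 0.07 in kidney (adjusted p = 0.215), and in liver it was -0.06 ± 0.14 (adjusted p = 0.878). In heart it passed without the last library of 12 weeks (0.35, adjusted p = 0.0157) and in DESeq2's test (0.28, adjusted p = 0.0359).

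Ages without overlap were found for 1 gene in heart for 12 against 8 weeks, *Enpep*, where 12.7% of all genes showed this, and for 1 in kidney, *Agtr1a*, where 6.49% did. *Enpep* was also the 1 gene in kidney for 12 against 10 weeks (9.13% of all), and *Nr3c2* the 1 in liver for 10 against 8 weeks (9.47% of all). In the remaining comparisons 0 genes were without overlap, against 9.73% for heart 10 against 8 weeks, 6.08% for heart 12 against 10, 8.98% for kidney 10 against 8, 7.95% for liver 12 against 8 and 8.09% for liver 12 against 10 weeks. These 3 genes were singled out after their values were seen.

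*Enpep* was the 1 gene whose change with age differed between organs past the test. Its heart libraries had 11.4, 8.56, 9.96 and 9.62 CPM at 8 weeks, 14.2, 8.41, 13.0 and 15.2 CPM at 10 weeks, and 15, 14.0, 13.9 and 12.4 CPM at 12 weeks. In liver it had 123.3, 154.3, 146.9 and 116.6 CPM at 8 weeks, 94.5, 136.5, 121.5 and 110.6 CPM at 10 weeks, and 115.5, 117.3, 94.0 and 117.4 CPM at 12 weeks. All heart libraries of 12 weeks lay above all of 8 weeks, whereas in liver 2 of the 12-week libraries lay below all of 8 weeks and the other two lay just above the lowest of them.

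**Figure D5:**
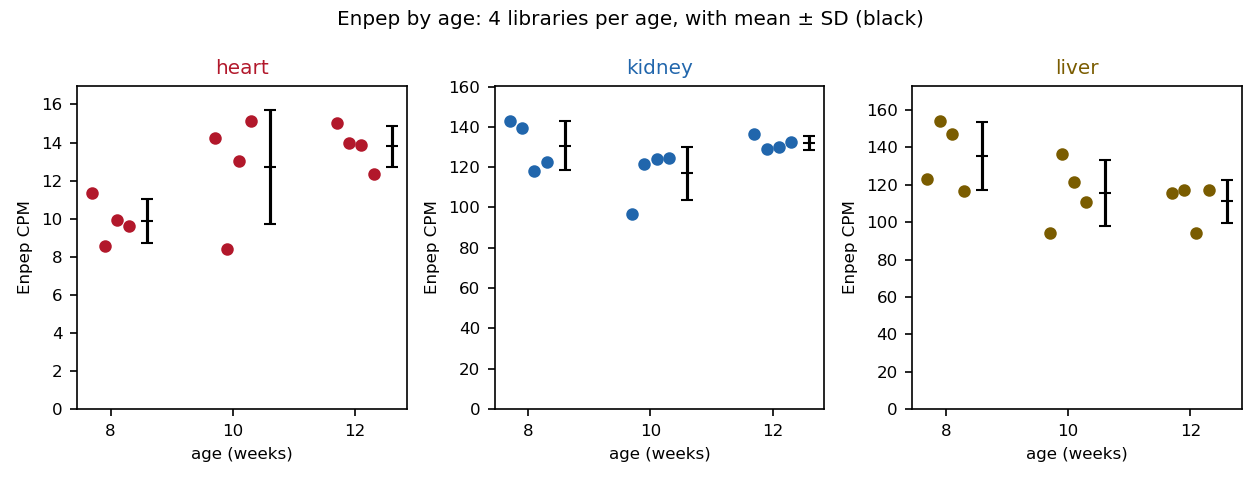
*Enpep* CPM in each library at 8, 10 and 12 weeks in heart, kidney and liver, each on its own axis from 0, with the mean and standard deviation of 4 libraries in black. The heart means are 9.87, 12.7 and 13.8 CPM and the liver means 135.3, 115.8 and 111.1 CPM.

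For *Enpep* the 12 against 8 week difference was 0.48 ± 0.15 in heart (adjusted p = 0.0672), 0.02 ± 0.08 in kidney (adjusted p = 0.956) and -0.29 ± 0.13 in liver (adjusted p = 0.312). The heart change passed without the count filter (adjusted p = 0.00881), in DESeq2's test (0.0271) and with the replicate block (0.046). That block joins libraries of the same number across ages, which come from different mice, so its pass adds little. It also passed without replicate 1 of 8 weeks (0.0487), replicate 2 of 10 weeks (0.0218) or replicate 4 of 12 weeks (0.0421). The difference between these changes was tested directly in the 36-library fit. Heart against liver differed by 0.77 ± 0.19 on the log2 scale (adjusted p = 0.016), and *Enpep* was the 1 gene of 8 to pass, where 4.16% of all 19716 genes did. The call was lost without replicate 2 of 8 weeks (0.63, adjusted p = 0.0937), replicate 3 of 8 weeks (0.73, adjusted p = 0.0534) or replicate 3 of 12 weeks (0.69, adjusted p = 0.0728), each left out in the 3 tissues. In the same kind of simulation 56.5% of genes with a planted difference of 1 were found, and 5.83% of the genes called were unchanged ones. For heart against kidney 0 of 8 genes passed (0.112% of all) and for liver against kidney 0 of 8 (0.304% of all), with 1 and 3 at an unadjusted p under 0.05 (11.1% and 11.2% of all genes). For heart against liver 3 of 8 were under 0.05 unadjusted (18.4% of all). *Hsd11b2* was 1 of these 3 and 1 of the 3 for liver against kidney. It held 8 pairs in all liver libraries together and 0 in those of 8 weeks. *Ren1*, also among the 8 genes, had 0 counts in heart.

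Of the 6 endothelial markers, 3 also passed in the contrast of heart against liver, where 4.16% of all genes did. The median log2 change of the 6 from 8 to 12 weeks was 0.02 in heart and -0.59 in liver. From 8 to 10 weeks in liver this median was 0.31, while *Enpep* was at -0.23. The 6 endothelial markers summed to a median of 599 CPM at 8 weeks and 667 CPM at 12 weeks in heart, and to 126 and 93.6 CPM in liver. *Kdr* (1.24 ± 0.26, adjusted p = 0.00636), *Tek* (0.82 ± 0.19, adjusted p = 0.0118) and *Pecam1* (0.61 ± 0.15, adjusted p = 0.0223) passed the same test of heart against liver. *Agtrap*, an inhibitor of the type 1 receptor (0.87 ± 0.19, adjusted p = 0.00959), *Lnpep*, encoding an aminopeptidase (0.46 ± 0.13, adjusted p = 0.0403), and *Rnpep*, encoding aminopeptidase B (-0.43 ± 0.12, adjusted p = 0.0289), were those of the 14 other angiotensin genes that passed. Whether the endothelial share had a part in the *Enpep* result was not tested.

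*Nr3c2* had its lowest mean at 10 weeks in all 3 tissues. Heart libraries were at 25.6, 31.7, 29.6 and 28.6 CPM at 8 weeks, 22.5, 17.7, 25.7 and 21.2 CPM at 10 weeks, and 27.3, 28.5, 23.2 and 22.3 CPM at 12 weeks. Liver libraries were at 24.8, 19.6, 17.2 and 16.8 CPM at 8 weeks, 14.5, 16.6, 8.05 and 11.5 CPM at 10 weeks, and 28.1, 23.6, 27.9 and 13.9 CPM at 12 weeks. In liver every 10-week library lay below every 8-week library, while 1 library of 12 weeks lay inside the range of 10 weeks.

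The log2 fold change of *Nr3c2* for 10 against 8 weeks was -0.40 ± 0.11 in heart (adjusted p = 0.0946) and -0.64 ± 0.25 in liver (adjusted p = 0.267). For 12 against 10 weeks in liver it was 0.88 ± 0.25 (adjusted p = 0.139). DESeq2's test gave an adjusted p of 0.0418 for the heart comparison and 0.0222 for the last one. In kidney the means were 15.96, 14.6 and 15.5 CPM at 8, 10 and 12 weeks, and no comparison came below an adjusted p of 0.571. Endothelial markers in liver summed to a median of 126, 163 and 93.6 CPM at these ages, and their part was not tested.

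*Ace* in kidney had 150.3, 154.6, 190.3 and 131.2 CPM at 8 weeks, 134.8, 137.5, 145.8 and 165.6 CPM at 10 weeks, and 183.1, 224.3, 149.6 and 206.1 CPM at 12 weeks. Of the 12-week libraries 3 lay above all of 10 weeks, and 1 was inside their range. The log2 fold change was 0.37 ± 0.12 for 12 against 10 weeks (adjusted p = 0.151) and 0.29 ± 0.12 for 12 against 8 weeks (adjusted p = 0.381). Without the filter on counts the adjusted p were 0.000517 and 0.0274, at log2 fold changes of 0.38 and 0.29. That fit takes in genes with few counts when it estimates the spread, and why the p fell was not tested. The proximal tubule markers summed to a median of 12300, 11400 and 13000 CPM at 8, 10 and 12 weeks, and their part was not tested.

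*Mme* in liver had 37.1, 28.3, 37.0 and 17.6 CPM at 8 weeks, 29.4, 20.4, 33.0 and 51.1 CPM at 10 weeks, and 52.3, 56.6, 26.9 and 68.2 CPM at 12 weeks. The ages overlapped through 1 low library of 12 weeks. The difference of 0.76 ± 0.32 between 12 and 8 weeks did not pass (adjusted p = 0.289), and its standard deviation within an age, 0.545 on the log2 scale, was larger than that of 85.2% of liver genes.

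*Agt* had its lowest mean at 12 weeks in heart and kidney. In kidney its means were 41.2 ± 3.34, 40.2 ± 6.33 and 34.8 ± 2.99 CPM (SD, n = 4) at 8, 10 and 12 weeks, and in heart 5.91 ± 1.25, 5.32 ± 1.40 and 4.34 ± 1.10 CPM. The 12 against 8 week differences of -0.24 ± 0.10 in kidney (adjusted p = 0.393) and -0.45 ± 0.21 in heart (adjusted p = 0.206) did not pass the test. In liver, where most *Agt* RNA was found, its means were 903.4 ± 156, 844.5 ± 83.1 and 861.6 ± 112 CPM.

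Among the other angiotensin genes, 1 of 14 tested in heart passed between ages, *Rnpep*, which fell by 0.33 on the log2 scale between 8 and 12 weeks (SE 0.09, adjusted p = 0.0433). The median of that list was 0.05, and 4.56% of all genes passed in that comparison. Markers of the cells of the heart that passed in the same comparison were *Myl2* (0.41) and *Ryr2* (0.48) of cardiomyocytes and *Pdgfra* (0.45) and *Lum* (0.39) of fibroblasts, on the log2 scale. *Pdgfra* (0.53) and *Lum* (0.68) also passed for 10 against 8 weeks, as did *Ttr* (3.27) of hepatocytes and *Lrp2* (4.10), a proximal tubule marker. None of the 12 angiotensin genes tested in kidney or the 11 in liver passed in any of their comparisons. The highest number at an unadjusted p under 0.05 was 5, in kidney for 12 against 10 weeks (16.4% of all genes).

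Of the 16 sodium transport and steroid-response genes, 12 were tested in heart, and *Wnk1*, a kinase that regulates sodium-chloride transport, rose between 8 and 12 weeks (0.58 ± 0.09, adjusted p = 0.00454) and between 8 and 10 weeks (0.46 ± 0.09, adjusted p = 0.0286). *Tsc22d3* fell between 8 and 12 weeks there (-0.61 ± 0.15, adjusted p = 0.0348). In liver *Sgk1*, a kinase induced by both classes of steroid, fell between 8 and 12 weeks (-0.65 ± 0.11, adjusted p = 0.0312), 1 of 12 tested. Of all heart genes 4.56% passed for 12 against 8 weeks and 1.06% for 10 against 8 weeks, and of all liver genes 0.239% for 12 against 8. In kidney, the tissue with *Hsd11b2* and the sodium channel, 0 of 16 passed for 12 against 8, 10 against 8 and 12 against 10 weeks. At an unadjusted p under 0.05 there were 4, 9 and 2 of 16, beside 11.7%, 16.5% and 16.4% of all genes. *Sgk1* ranged from 51.0 to 379 CPM over the 12 kidney libraries.

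Of the 9 distal tubule markers tested in kidney, a list that holds *Hsd11b2* itself, 1 passed between 10 and 12 weeks, where 0.482% of all genes did. *Aqp2*, the water channel of the collecting duct, fell (-1.10 ± 0.19, adjusted p = 0.0239). *Hsd11b2* over the same ages was at 107.7, 93.9, 112.2 and 121.3 CPM and then at 105.1, 101.7, 107.1 and 103.6 CPM, with a difference of -0.08 ± 0.06 (adjusted p = 0.603). The 12-week libraries all lay inside the range of 10 weeks.

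As a description, the genes most like 7 of the members were sought over the 12 libraries of the tissue where it was highest, by the Pearson correlation of log2 CPM after removing the mean of each age. *Ace* in kidney was most like *Coasy* (r = 0.970, Spearman's rho = 0.986), *Mme* in kidney most like *Usb1* (r = 0.968, rho = 0.944) and *Agtr1a* in liver most like *Acot13* (r = 0.954, rho = 0.958). *Enpep* in kidney was most like *Gnptab* (r = 0.938, rho = 0.944) and *Nr3c2* in heart most like *Polq* (r = 0.936, rho = 0.930). *Ren1* in kidney was most like *Akap8* (r = 0.907, rho = 0.888) and *Agt* in liver most like *Mbl2* (r = 0.906, rho = 0.909). These are the highest of 13554 genes in kidney, 12879 in heart and 12581 in liver, libraries share their depth and makeup across genes, and 5% of the kidney genes had an r above 0.624 with *Ren1*.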

How the data were processed

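Poly(A) RNA of 36 libraries was sequenced as paired reads of 150 bases by the authors, who checked it with FastQC 0.11.9, trimmed it with cutadapt 4.2 and aligned it to GRCm39 with STAR 2.7.11b, versions per the submitters' processing notes. The deposited values are raw counts of read pairs per Ensembl gene and library, and the unstranded column served here, in which a pair overlapping more than 1 gene is counted for none. Libraries held 21031599 to 33637390 counted pairs, and each of the 9 groups had 4, taken from the labels. There were 0 columns of no sample.

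Genes were kept where at least 1 age group had at least 2 libraries above 0 and a mean count of at least 10, as in the study. edgeR 4.0.16 (R 4.3.3) fitted quasi-likelihood models with TMM factors to each tissue for age, and to all 36 libraries for tissues and for the difference between tissues in the change from 8 to 12 weeks. Adjusted p are Benjamini-Hochberg values over all genes tested, with a threshold of 0.05, and between tissues also an absolute log2 fold change over 1. SE is the absolute log2 fold change divided by the square root of F, which is too small where a large fold rests on few counts. Intervals are at 95% by the normal distribution and can be narrower than the F-test implies. For *Enpep* in kidney, 12 against 10 weeks, the interval was 0.002 to 0.316 at an unadjusted p of 0.0676 in edgeR's test. Floors of 3 counts cover counting error only. The scripts were tested on simulated data with 200 changed genes.

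The 9 genes are all named. Genes of lists of the pathway and of cell type markers were named where they passed between ages, and in up to 4 examples a tissue comparison, and for 7 of the 9 the gene of highest correlation. The values of 1 listed gene and 1 correlated gene are not reported here. The genes and lists were chosen with earlier results of these data known. Alternatives were RLE factors, library totals, no count filter, DESeq2 1.42.0, limma-voom (limma 3.58.1), the replicate number as a block, each library left out, the summed strand columns and, added after seeing the data, the length of all exons. Promoter sequences came from RefSeq (GRCm38.p6 table) and were placed on GRCm39 by exact match, and gene annotation came from GENCODE. Python 3.11.15 with matplotlib 3.10.9 drew the figures.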

Additional observations from a re-analysis of the deposited data

Results flagged for a closer look

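In 5 groups of 4 libraries, 1 library stood apart from the other 3 by more than Dixon's limit for 4 values, out of 71 groups examined, and chance alone marks about 1 in 20 groups. *Ren1* in liver at 10 weeks was at 0.0764 CPM in 1 library and at 0 in the others, which lies below the floor of 3 counts. *Agtr1a* in kidney at 12 weeks had a high library of 36.2 CPM beside 31.6 to 32.0 CPM. *Mme* in heart at 8 weeks had a low library of 10.1 CPM beside 15.4 to 16.3 CPM. *Enpep* had a low library of 97.0 CPM in kidney at 10 weeks, beside 121.8 to 124.5 CPM, and of 94.0 CPM in liver at 12 weeks, beside 115.5 to 117.4 CPM. The change of *Enpep* from 8 to 12 weeks differed between heart and liver by 0.77 on the log2 scale in the direct test, and without replicate 3 of 12 weeks, which includes that low liver library, it was 0.69 (edgeR adjusted p = 0.0728).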

How the results depend on the processing

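The counts of genes called between tissues stayed within 1.5 times under every alternative run. Between ages, where 0 of the 9 genes passed, single genes passed in some alternatives. Without the count filter 1 passed in heart for 12 against 8 weeks, 1 for heart 10 against 8, 1 for kidney 12 against 8, 1 for kidney 12 against 10, 1 for liver 12 against 10 and 1 for the difference of liver against kidney, and DESeq2 gave 2 in heart for 12 against 8, 1 for heart 10 against 8 and 1 for liver 12 against 10 weeks. The fit with the replicate block, which joins different mice by their number across ages, gave 1 in heart for 12 against 8 weeks (*Enpep*, adjusted p = 0.046). Leaving out 1 library gave 0 to 2 for heart 12 against 8 weeks (1 without replicate 1 of 8 weeks, 1 without replicate 2 of 10 weeks and 2 without replicate 4 of 12 weeks), 0 to 1 for heart 10 against 8 weeks (1 without replicate 2 of 10 weeks) and 0 to 1 for heart against liver. The cause was not tested.

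Signs turned for *Ren1* in kidney at 10 against 8 weeks (limma-voom 0.12, replicate block 0.053), for *Agtr1a* in kidney against heart (totals 0.032) and *Nr3c2* in kidney against liver (totals 0.56), and for *Agtr1a* in the difference of heart against kidney (no filter -0.0045). With 1 library left out, log2 values of age comparisons that crossed 0 ran in heart from -0.012 to 0.064 for *Ace* (12 against 8), -0.068 to 0.080 for *Mme* and -0.041 to 0.20 for *Enpep* (12 against 10). In kidney for 12 against 8 they ran from -0.062 to 0.76 for *Ren1*, -0.030 to 0.069 for *Enpep* and -0.082 to 0.011 for *Nr3c2*. For 10 against 8 there they ran from -0.39 to 0.43 for *Ren1*, -0.088 to 0.077 for *Agt*, -0.16 to 0.025 for *Ace* and -0.029 to 0.076 for *Mme*. In liver the ranges were -0.16 to 0.043 for *Agt* and -0.18 to 0.039 for *Agtr1a* (12 against 8), -0.17 to 0.016 for *Agt*, -0.20 to 0.46 for *Ace* and -0.13 to 0.32 for *Mme* (10 against 8), and -0.057 to 0.093 for *Agt* and -0.15 to 0.032 for *Enpep* (12 against 10). For heart against kidney they were -0.76 to 0.069 for *Ren1*, -0.025 to 0.088 for *Agtr1a* and -0.72 to 0.0045 for *Hsd11b2*.

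*Nr3c2* in kidney against liver missed the threshold with RLE factors (adjusted p = 0.0503), limma-voom (0.0565) and the replicate block (0.0532), and in 6 of 12 fits with 1 library of each tissue left out. Libraries of the same number in different ages did not deviate together (r from -0.373 to 0.339, own number best in 3, 2 and 2 of 12 in heart, kidney and liver), and for tissues of the same age and number 11 of 12 kidney and liver pairs had an r over 0.1 but only 7 of heart and kidney and 4 of heart and liver, so the numbers were not taken as pairs. Own number was best in 11, 8 and 6 of 12 there, where 1 in 4 is expected by chance, a hint from the data that they may mark the same mouse. With age and number as a replicate block over the tissues, 6, 6 and 6 genes were called between kidney and heart, liver and heart, and kidney and liver, and *Enpep* in heart against liver kept its call (0.77, adjusted p = 0.0274). Depth limited *Ren1* in heart and liver, *Agtr1b* everywhere and *Hsd11b2* outside kidney.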
